A study of Mus musculus with 2 samples.

Results

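A fixed list of 40 cell-cycle genes, 18 of S phase and 22 of mitosis, was followed in single cells of the embryonic mouse brain, out of 32285 genes in the matrices. All 40 were chosen by name, with earlier results of these data known, and were present in both matrices. They were compared between radial glial cells (RGCs), taken as cells with at least 3 UMIs of *Slc1a3*, a glial glutamate transporter, and at most 1 of *Eomes*, and intermediate progenitor cells (IPCs), taken as cells with at least 2 UMIs of *Eomes*, the transcription factor Tbr2, and at most 2 of *Slc1a3*. A UMI is a tag that marks a single transcript molecule. The data are 10x Genomics 3′ single-cell libraries of 2 embryos at E16.5, 1 library per embryo, numbered 4 and 5. The tissue is labelled as brain hemispheres, while the protocol names the cortex. Both embryos are labelled wild type and come from an Eomes-Cre/Mllt3 line, the mice are described as C57BL/6J, and no treatment is given. Both groups of cells thus come from the same 2 animals, and animals of other genotypes were not analysed here.

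RGCs line the ventricle and divide to renew themselves and to give rise to IPCs and neurons, whereas most IPCs divide a small number of times and produce neurons. Before each division the genome is copied in S phase. The Mcm helicase opens the DNA, *Pcna* clamps the polymerases to it, and enzymes such as ribonucleotide reductase supply the nucleotides. In G2 and M phase, cyclins and the kinases *Cdk1*, *Plk1*, *Aurka* and *Aurkb* drive entry into mitosis, motor proteins and microtubule binders build the spindle, and *Cdc20* and *Ube2c* take part in the destruction of cyclins that ends it. Transcription of the first set is known to depend largely on E2F factors, and that of the second on the MuvB complexes, which bind the cell cycle homology region (CHR), together with NF-Y at CCAAT boxes.

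RefSeq promoter windows (250 bases before and 50 bases after the annotated start, build GRCm38.p6) were given for 35 of the 40 genes, 16 of S phase and 19 of mitosis. *Mcm4*, *Gins2*, *Ccna2*, *Tpx2* and *Aurkb* had none, and *Mcm7*, *Fen1* and *Prc1* had 2 windows each, of which either could hold a match. Letters of 4 E2F-type sites (TTTCCCGC, TTTCGCGC, TTTGCCGC, TTTGGCGC), the CHR, spelled TTTGAA in its usual form and TTCGAA in a variant, and the CCAAT box by its name were searched on both strands, and an E2F-type match can overlap another. An E2F-type match was found for 7 of 16 S-phase genes (43.75%) and for 1 of 19 mitotic genes, *Cdk1*, beside 2.605% of 27025 genes. A CHR match was found for 14 of 19 mitotic genes (73.68%) and for 4 of 16 S-phase genes, beside 21.66% of all genes. CCAAT was found for 17 mitotic and 11 S-phase genes, beside 41.06% of all genes. All 14 mitotic genes with a CHR also had a CCAAT box, against 3 S-phase genes and 8.614% of all genes. The 250 bases before the start of 2 genes of each set are shown to set the layouts side by side, with matches in capitals. They are those of *Mcm5* (chr8:75109259-75109508, plus strand) and *Mcm6* (chr1:128359706-128359955, minus strand), helicase subunits with overlapping E2F-type matches, and of *Ube2c* (chr2:164769679-164769928, plus strand) and *Cdc20* (chr4:118437344-118437593, minus strand), each with a CHR near the start and with CCAAT boxes.
Mcm5: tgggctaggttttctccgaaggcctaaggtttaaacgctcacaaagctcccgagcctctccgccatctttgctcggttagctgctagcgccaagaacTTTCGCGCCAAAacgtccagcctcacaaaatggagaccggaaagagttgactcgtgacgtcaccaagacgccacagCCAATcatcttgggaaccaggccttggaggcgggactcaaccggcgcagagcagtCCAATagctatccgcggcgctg
Mcm6: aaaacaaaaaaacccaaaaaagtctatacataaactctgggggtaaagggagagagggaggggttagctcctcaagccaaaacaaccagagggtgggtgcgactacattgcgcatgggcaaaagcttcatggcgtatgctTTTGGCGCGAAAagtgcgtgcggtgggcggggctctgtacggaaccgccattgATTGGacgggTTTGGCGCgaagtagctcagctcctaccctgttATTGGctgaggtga
Ube2c: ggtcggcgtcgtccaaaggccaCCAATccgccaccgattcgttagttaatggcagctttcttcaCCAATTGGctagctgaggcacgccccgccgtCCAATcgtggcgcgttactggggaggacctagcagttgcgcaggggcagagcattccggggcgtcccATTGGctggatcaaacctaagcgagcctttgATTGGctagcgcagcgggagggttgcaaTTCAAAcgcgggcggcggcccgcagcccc
Cdc20: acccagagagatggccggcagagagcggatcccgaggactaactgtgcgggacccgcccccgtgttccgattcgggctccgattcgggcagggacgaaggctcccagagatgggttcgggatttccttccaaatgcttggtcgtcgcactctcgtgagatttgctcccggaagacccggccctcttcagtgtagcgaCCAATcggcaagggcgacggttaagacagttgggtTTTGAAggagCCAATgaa

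**Figure D1:**
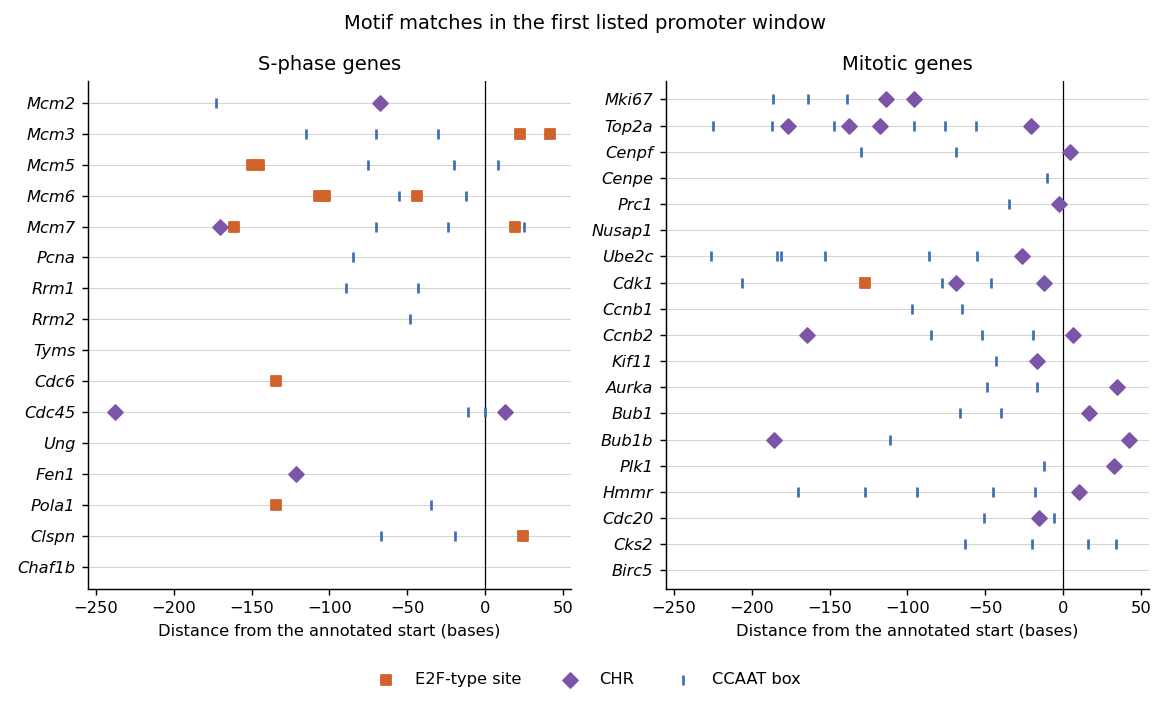
Position of each motif match in the promoter windows of 16 S-phase genes (left) and 19 mitotic genes (right), in bases from the annotated start, with orange squares for E2F-type sites, purple diamonds for the CHR and blue bars for CCAAT. Only the first listed window of each gene is drawn. E2F-type matches lie in 7 S-phase rows, and 14 of the 19 mitotic rows carry a CHR.

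The libraries held 12825 and 12289 barcodes with 124318613 and 117679925 UMIs, and 9932 and 10416 cells were kept, with medians of 10066.5 and 8840 UMIs per cell. The libraries shared 46 barcodes, 28 of them among kept cells. RGCs numbered 1122 in embryo 4 and 1153 in embryo 5, and IPCs 1330 and 1344, with medians of 12698.5 and 11299 UMIs per RGC and 10126 and 8275.5 per IPC. Excitatory neurons, taken by *Neurod6*, a neuronal transcription factor, without the other markers (4482 and 4996 cells), served as cells that have left the cycle. The classes carried the markers of their names. *Fabp7*, a lipid-binding protein of RGCs, stood at 3142 and 3377 CPM (counts per 1000000 UMIs of the sum) in RGCs and at 276.3 and 252.2 CPM in IPCs, and *Neurog2*, a neurogenic factor of IPCs, at 43.4 and 23.1 CPM against 472.1 and 409.1 CPM. Neuronal transcripts were present in both classes. At least 2 UMIs of *Neurod6* were counted in 78.0% and 74.5% of IPCs and in 23.6% and 20.8% of RGCs, and 6 excitatory-neuron markers summed to 1294 and 1339 CPM in IPCs and to 969 and 851 CPM in RGCs. Of these markers *Mapt* and *Bcl11b* were higher in RGCs and the rest lower. *Mapt* stood at 217 and 198 CPM in RGCs against 96.9 and 91.6 CPM in IPCs, and *Bcl11b* at 190 and 180 against 161 and 160 CPM. Markers of GABAergic cells, subpallial progenitors, oligodendrocyte precursors, vessels and microglia each summed to at most 59.2 CPM in both classes. Haemoglobin transcripts summed to 918 and 1549 CPM in RGCs and to 987 and 2640 CPM in IPCs, higher in embryo 5 in both.

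The first question was how the members stood in RGCs against IPCs. All 40 were lower in IPCs than in RGCs, and the levels of the 2 embryos did not overlap between the classes for any of them. The deficit was deeper for the mitotic set. The 22 mitotic members summed to 3948 and 4200 CPM in RGCs of embryos 4 and 5 and to 1201 and 1401 CPM in IPCs, a ratio of RGCs over IPCs of 3.14 ± 0.206 (SD, n = 2 embryos). The 18 S-phase members summed to 1303 and 1414 CPM in RGCs and to 682 and 715 CPM in IPCs, a ratio of 1.94 ± 0.048 (SD, n = 2 embryos). The mitotic sum was 3.03 and 2.97 times the S-phase sum in RGCs and 1.76 and 1.96 times in IPCs. With 2 sums against 2, taken as unpaired, an exact permutation test cannot go below p = 0.333. Pairing the sums by embryo leaves still fewer arrangements, so these sums carry no test.

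For single genes, the sums of each embryo and class were put through edgeR's quasi-likelihood test over 15393 genes. At an adjusted p under 0.05, 18 of 18 S-phase and 22 of 22 mitotic members were lower in IPCs, where 25.7% of all genes tested were lower and 24.5% higher (50.2% in either direction). The median log2 difference (IPCs minus RGCs, on the scale normalised by TMM) was -0.85 over the S-phase members and -1.51 over the mitotic members, and 0.0020 over all genes. CPM of the 2 embryos lay lower in IPCs without overlap for 44.0% of all genes and higher for 32.2%. As these are sums over cells, fewer cycling cells and less RNA per cell cannot be told apart in them. No member was used to define either class. Both embryos have 1 library each, so the p-values measure only the spread between these libraries. On simulated data the share of false calls in such fits exceeded the nominal rate, so calls near the threshold are the least certain.

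Among the helicase subunits, which load at origins before S phase and open the DNA in it, the differences were uneven. *Mcm3* stood at 82.9 and 95.2 CPM in RGCs and at 22.8 and 23.1 CPM in IPCs, a log2 difference of -1.86 (SE 0.10, adjusted p = 7.6e-06 in edgeR's test). *Mcm7* stood at 116.9 and 129.7 CPM against 84.2 and 92.4 CPM, a log2 difference of -0.39 (SE 0.09, adjusted p = 0.0079). *Mcm2* was also close to the small end, at 39.0 and 40.5 CPM in RGCs and 27.4 and 27.2 CPM in IPCs, a log2 difference of -0.45. *Mcm4*, *Mcm5* and *Mcm6* lay between these, with log2 differences of -1.11, -1.25 and -0.85. The standard errors of all 6 lay between 0.08 and 0.10, and differences between subunits were not tested.

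The loading factor *Cdc6* stood at 13.4 and 16.1 CPM in RGCs and at 5.33 and 6.0 CPM in IPCs, a log2 difference of -1.29 (SE 0.17). *Cdc45* and *Gins2*, partners of the helicase at the moving fork, had log2 differences of -0.85 and -0.67. *Pcna* stood at 190 and 196 CPM in RGCs against 92.2 and 89.9 CPM in IPCs, a log2 difference of -0.99 (SE 0.07). *Pola1*, the catalytic subunit of the polymerase that starts new strands, differed by -1.19, and *Clspn*, a mediator of the replication checkpoint, by -0.93. *Chaf1b*, a subunit of the assembly factor that places histones on new DNA, differed by -0.81. *Fen1*, the flap endonuclease that trims Okazaki fragments, stood at 29.9 and 31.1 CPM against 20.1 and 22.6 CPM, a log2 difference of -0.42 that was not called in DESeq2 (adjusted p = 0.0558).

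Among enzymes of nucleotide supply and repair, *Rrm1* and *Rrm2*, the subunits of ribonucleotide reductase, had log2 differences of -0.63 and -0.59. *Tyms*, which makes thymidylate, had one of -0.81. *Ung*, which removes uracil from DNA, stood at 18.7 and 19.1 CPM in RGCs and 5.12 and 4.40 CPM in IPCs, a log2 difference of -1.89 (SE 0.14, adjusted p = 4.9e-05 in edgeR's test), the largest of the S-phase set. The S-phase members thus ranged from -1.89 to -0.39, while the mitotic members lay within -1.99 to -1.31.

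In the mitotic set the kinetochore protein *Cenpf* differed most. It stood at 429.6 and 462.7 CPM in RGCs and at 102.5 and 108.3 CPM in IPCs, a log2 difference of -1.99 (SE 0.08, adjusted p = 2.25e-06 in edgeR's test). *Prc1*, which bundles microtubules of the spindle midzone, stood at 265.0 and 293.3 CPM against 65.1 and 79.8 CPM, a log2 difference of -1.85. *Cdc20*, an activator of the anaphase-promoting complex, stood at 143.1 and 119.7 CPM against 36.4 and 35.8 CPM, a difference of -1.77, and *Ube2c*, the ubiquitin-conjugating enzyme of that complex, at 400.7 and 383.0 CPM against 123.7 and 136.8 CPM, a difference of -1.49. The mitotic kinases *Aurkb*, *Plk1*, *Cdk1*, *Bub1b*, *Bub1* and *Aurka* had log2 differences of -1.73, -1.72, -1.63, -1.66, -1.38 and -1.35. The cyclins *Ccnb1*, *Ccna2* and *Ccnb2* had differences of -1.68, -1.52 and -1.31, and *Cks2*, a small partner of the cyclin-dependent kinases, one of -1.60. The motors *Kif11* and *Cenpe* differed by -1.51 and -1.33, and the spindle proteins *Hmmr*, *Nusap1* and *Tpx2* by -1.59, -1.35 and -1.31. *Birc5*, a subunit of the chromosomal passenger complex, differed by -1.51. *Mki67*, the Ki-67 antigen that coats mitotic chromosomes, stood at 219.3 and 257.8 CPM against 79.8 and 98.1 CPM, a difference of -1.33. *Top2a*, the topoisomerase that untangles chromosomes, stood at 464.5 and 616.3 CPM against 157.2 and 208.0 CPM, a difference of -1.47.

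**Figure D2:**
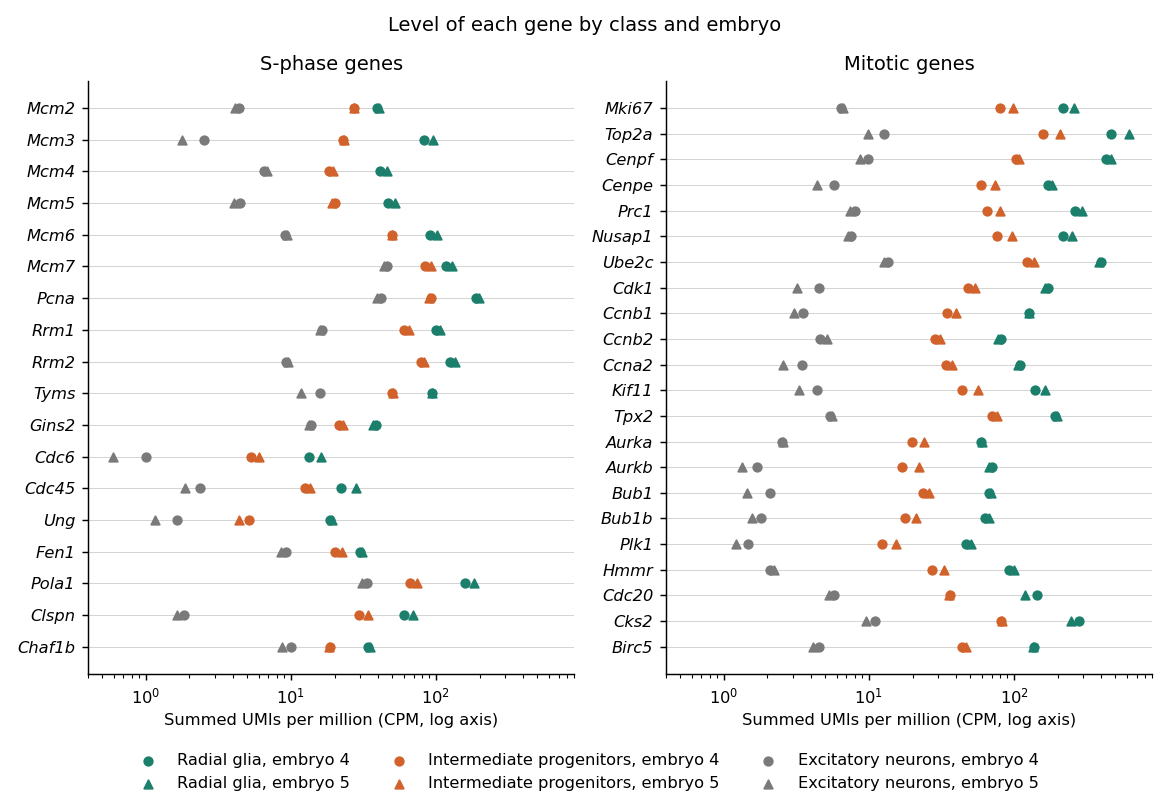
Level of each gene in RGCs (green), IPCs (orange) and excitatory neurons (grey) as CPM of summed UMIs on a log axis, with circles for embryo 4 and triangles for embryo 5. In every row the RGC points lie to the right of the IPC points and both lie to the right of the neuron points, and the ratio of RGCs over neurons is smallest for *Mcm7*, *Gins2* and *Fen1*.

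Leaving cells with any *Neurod6*, *Gad1* or *Gad2* UMI out of the RGCs, an alternative chosen after seeing the data, moved the medians to -1.23 for the S-phase and -1.87 for the mitotic members, and all 40 remained lower in IPCs. Leaving them out of both classes left 653 and 765 RGCs and 175 and 205 IPCs. The S-phase sum was then 1677 and 1729 CPM in RGCs and 948 and 1113 CPM in IPCs, and the mitotic sum 4947 and 5342 CPM in RGCs and 1005 and 876 CPM in IPCs. Under this limit all 22 mitotic members but 14 of 18 S-phase members were called lower, and *Mcm2*, *Gins2*, *Fen1* and *Chaf1b* were not. That fit called 3806 genes in either direction.

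Set against the other classes, RGCs had the highest sums and excitatory neurons the lowest for both sets. The S-phase sum was 229 and 214 CPM in excitatory neurons, 6.15 ± 0.658 times lower than in RGCs and 3.16 ± 0.261 times lower than in IPCs (SD, n = 2 embryos). The mitotic sum was 123 and 109 CPM in them, 35.3 ± 4.46 times lower than in RGCs and 11.3 ± 2.16 times lower than in IPCs. Cells with both markers, at least 3 UMIs of *Slc1a3* and 2 of *Eomes* (112 and 113 cells), had mitotic sums of 2087 and 2849 CPM, between RGCs and IPCs in both embryos. Their S-phase sums of 699 and 858 CPM overlapped those of IPCs. Before doublets were removed, 69 of 181 and 53 of 166 cells with both markers had been marked as such. These were 38.1% and 31.9% of them, against 15.8% and 16.0% of RGCs and 12.04% and 10.6% of IPCs.

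**Figure D3:**
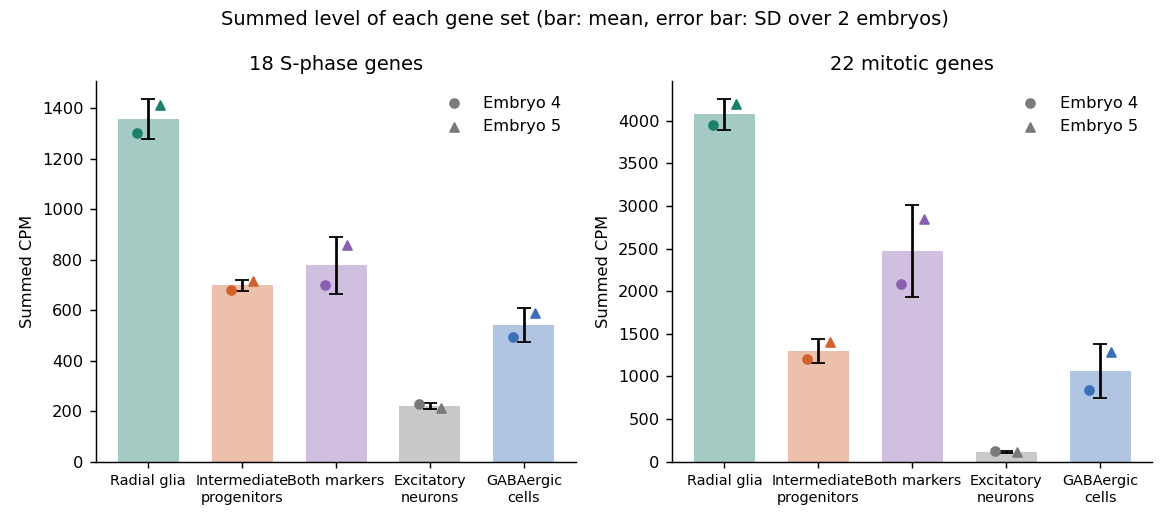
Summed CPM of the 18 S-phase genes (left) and 22 mitotic genes (right) in 5 classes, with bars for the mean, error bars for the SD over 2 embryos, and points for each embryo. The mitotic sum is 4074 CPM in RGCs, 1301 CPM in IPCs and 116 CPM in excitatory neurons, and the S-phase sum is 1358, 699 and 221 CPM.

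The members differed in how far neurons stood below. Mean ratios of RGCs over excitatory neurons were 2.75 for *Mcm7*, 2.80 for *Gins2*, 3.44 for *Fen1*, 3.72 for *Chaf1b* and 4.76 for *Pcna*. They were 43.2 for *Mcm3* and 37.6 for *Clspn* in the S-phase set, and 49.3 for *Top2a*, 48.6 for *Cenpf* and 46.2 for *Aurkb* in the mitotic set. In the mitotic set the lowest was 16.3, for *Ccnb2*. After each cell was thinned to 5000 UMIs, *Mcm7* had at least 1 UMI in 20.8% and 20.5% of neurons, against 40.9% and 42.8% of RGCs and 31.4% and 31.4% of IPCs. *Pcna* had one in 17.7% and 17.6% of neurons, 44.7% and 46.0% of RGCs and 24.6% and 21.3% of IPCs. *Top2a* was seen in 3.94% and 2.56% of neurons at that depth and in 40.9% and 46.3% of RGCs and 13.9% and 13.1% of IPCs.

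To count cells with transcripts of each set, cells were thinned to 5000 UMIs and counted as positive for a set with at least 4 of its UMIs. As thinning gives every cell the same depth, these counts are shares of a cell's UMIs and not its RNA content. The terms S-phase positive and mitosis-positive name the set counted, not the phase a cell was in. *Top2a* of the mitotic set, for example, is a transcript of cells from S phase to mitosis. Thinning left out 62 and 52 RGCs and 65 and 65 IPCs with fewer UMIs. S-phase positive cells were 50.9% (exact 95% binomial interval 47.9 to 54.0) and 55.6% (52.6 to 58.5) of RGCs, and 18.3% (16.2 to 20.6) and 18.4% (16.3 to 20.6) of IPCs. Mitosis-positive cells were 48.4% (45.3 to 51.5) and 49.7% (46.7 to 52.7) of RGCs, and 13.2% (11.4 to 15.2) and 13.4% (11.6 to 15.4) of IPCs. In excitatory neurons, which serve as the background, the shares were 3.65% and 3.24% for S phase and 1.37% and 1.09% for mitosis. The intervals of RGCs, IPCs and neurons did not overlap, and they cover counting error only. Without thinning the S-phase shares were 73.4% and 72.9% in RGCs, 36.7% and 29.8% in IPCs and 24.3% and 16.5% in neurons, and the mitotic shares were 56.1% and 56.9%, 18.2% and 16.0%, and 3.70% and 2.06%.

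The sets were also counted together in single cells. In IPCs both sets were found in 9.64% and 10.2% of cells and the mitotic set alone in 3.56% and 3.21%. In RGCs both sets were found in 31.9% and 34.8% of cells and the mitotic set alone in 16.5% and 14.9%. Neither set was reached in 78.1% and 78.4% of IPCs and in 32.5% and 29.5% of RGCs. Mitosis-positive RGCs (513 and 547 cells) held on average 34.2 and 35.8 mitotic UMIs, and mitosis-positive IPCs (167 and 171 cells) held 30.6 and 35.8, so the means of the embryos overlapped. The same cells held 8.23 and 8.81 S-phase UMIs in RGCs and 11.4 and 11.3 in IPCs, without overlap. These averages are over cells chosen by their mitotic UMIs and carry no test.

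**Figure D4:**
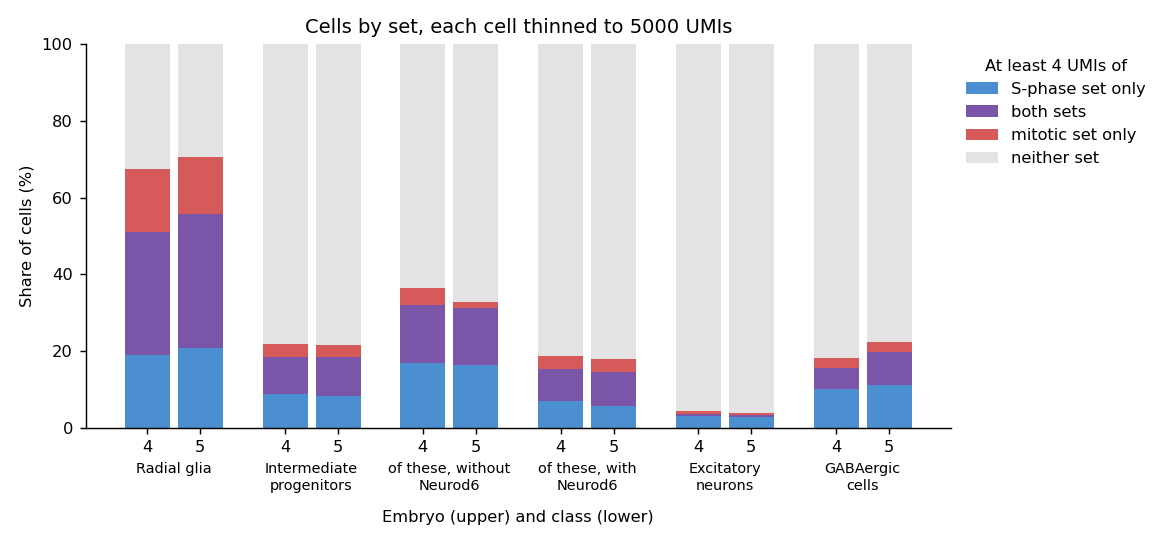
Share of cells (%) with at least 4 UMIs of the S-phase set only (blue), of both sets (purple), of the mitotic set only (red) or of neither (grey), after thinning each cell to 5000 UMIs, as 1 stacked bar per embryo and class. Neither set is reached in 29.5% to 32.5% of RGCs, 78.1% and 78.4% of IPCs and 95.6% and 96.2% of excitatory neurons, and the 2 middle pairs split the IPCs by *Neurod6*.

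Across cells of a class, mitotic members rose and fell together more than S-phase members. The median Pearson r of log2(UMIs per 10000 + 1) over 231 pairs of mitotic members was 0.54 and 0.53 in RGCs (1060 and 1101 cells) and 0.55 and 0.60 in IPCs (1265 and 1279 cells). Over 153 pairs of S-phase members it was 0.21 and 0.21 in RGCs and 0.25 and 0.23 in IPCs. Between the sets (396 pairs) it was -0.02 and -0.03 in RGCs and 0.17 and 0.16 in IPCs. The closest pair was *Top2a* with *Nusap1*, at 0.78 and 0.79 in RGCs and 0.78 and 0.86 in IPCs, followed by *Mki67* with *Top2a* at 0.70 and 0.76 and at 0.80 and 0.81. The points are cells that share a library and a fixed depth, and sparse counts hold r down, so these values are descriptions.

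The second comparison took only cells with at least 2 UMIs of *Top2a*, a transcript of cells from S phase to mitosis, to compare the other 39 members among them. They were 36.5% and 42.4% of RGCs (410 and 489 cells) and 10.2% and 9.97% of IPCs (136 and 134 cells), with medians of 16194 and 13182 UMIs per RGC and 13609 and 11704 UMIs per IPC. The S-phase sum was 1903 and 1947 CPM in RGCs and 2702 and 2723 CPM in IPCs, 1.41 ± 0.015 times higher in IPCs (SD, n = 2 embryos). The mitotic sum without *Top2a* was 0.93 and 1.06 times that of RGCs, so its direction differed between the embryos. These sums are shares of all UMIs, not counts per cell, and the limit may leave out cycling cells. *Top2a* is itself a member, so the limit also selects on genes that rise with it. RGCs without a *Top2a* UMI still had S-phase sums of 741 and 746 CPM, and such IPCs had 355 and 361 CPM. In excitatory neurons the sum was 229 and 214 CPM.

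Of 18 S-phase members, 11 were higher in IPCs, none was lower and 7 were not called (edgeR over 12521 genes, of which 13.8% were higher and 14.9% lower, 28.6% in all). By CPM, 14 were higher and 2 lower without overlap of the embryos, beside 28.9% and 36.1% of all genes. DESeq2 called 10 higher and 0 lower, with 2260 genes called in either direction. *Rrm2* stood at 232 and 230 CPM in RGCs and at 470 and 482 CPM in IPCs, a log2 difference of 1.08 (SE 0.09, adjusted p = 2.84e-05 in edgeR's test). *Fen1* stood at 47.2 and 49.0 CPM against 85.6 and 86.8 CPM, a difference of 0.88, and *Clspn* at 110 and 114 CPM against 187 and 202 CPM, a difference of 0.83. *Mcm2* stood at 44.3 and 43.9 CPM against 78.3 and 70.4 CPM, a difference of 0.79, and *Cdc45* at 40.2 and 45.4 CPM against 67.3 and 71.0 CPM, a difference of 0.73. *Tyms*, *Chaf1b*, *Rrm1*, *Mcm6*, *Pcna* and *Mcm7* were higher by 0.61, 0.59, 0.57, 0.48, 0.43 and 0.43. The 7 that were not called had log2 differences from -0.30 (*Gins2*) to 0.48 (*Cdc6*), with *Mcm3* at -0.28, *Ung* at -0.13, *Mcm4* at 0.06, *Pola1* at 0.24 and *Mcm5* at 0.27.

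Of 21 mitotic members tested there, 2 were higher in IPCs, 1 was lower and 18 were not called, beside 13.8% of all genes higher and 14.9% lower. By CPM, 7 were higher and 2 lower without overlap of the embryos, beside 28.9% and 36.1% of all genes. The mitotic members had a median log2 difference of 0.03 beside 0.48 for the S-phase members and -0.0082 over all genes. *Mki67* was higher by 0.31 (adjusted p = 0.0459 in edgeR's test) and *Tpx2* by 0.30 (adjusted p = 0.0293). *Cenpf* stood at 880 and 877 CPM in RGCs and 683 and 668 CPM in IPCs, lower by a log2 difference of -0.34 (adjusted p = 0.0123 in edgeR's test). With the embryo as a block, which uses that both sums come from 1 animal, 6 mitotic members were higher (*Cenpe*, *Nusap1*, *Ccnb2* and *Bub1* in addition) and 3 lower (*Prc1* and *Cdc20* in addition). The fit with the block called 4320 of 12521 genes in either direction, against 3585 without it. In that fit *Pola1* was also called higher and *Mcm3* lower, so that 12 S-phase members were higher and 1 was lower. With at least 1 UMI of *Top2a* in place of 2, only 3 S-phase members were higher and 2 were lower, with a median of 0.10, and 4 mitotic members were lower and 0 higher, with a median of -0.29. With at least 4 UMIs the counts were 11 and 1 for the S-phase and 6 and 1 for the mitotic members, and after thinning each cell to 5000 UMIs 10 and 0, and 1 and 2. Over all genes, 3888 were called in either direction at 1 UMI, 3608 at 4 UMIs and 2303 after thinning. Neuronal markers moved with this comparison, since the 6 excitatory-neuron markers summed to 137 and 119 CPM in the RGCs with *Top2a* and to 934 and 954 CPM in the IPCs, and their part in the result was not tested.

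**Figure D5:**
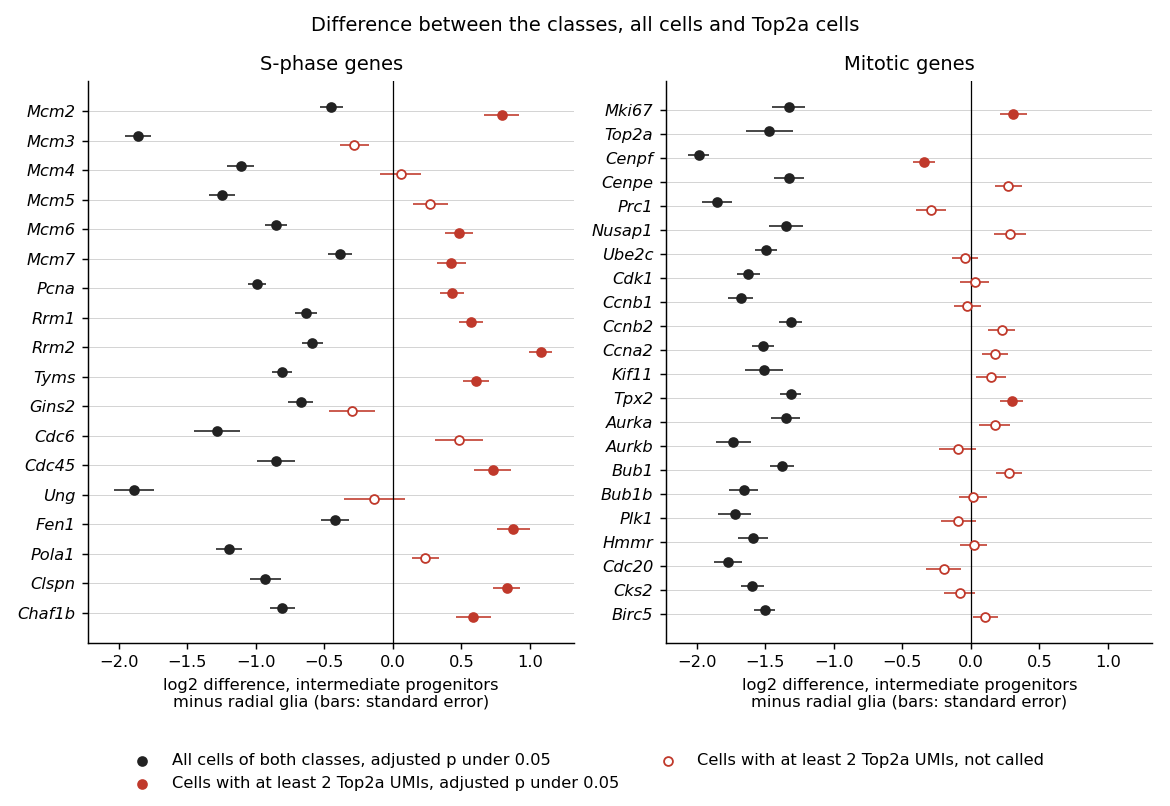
Fitted log2 difference (IPCs minus RGCs) of each gene with its standard error, for all cells of the classes (black) and for cells with at least 2 UMIs of *Top2a* (red), with filled points where the adjusted p was under 0.05. All 40 black points lie left of 0, while among the red points 11 S-phase genes are filled and to the right of 0 and 18 of 21 mitotic genes are open.

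Cells without a *Top2a* UMI (592 and 566 RGCs, 1085 and 1133 IPCs) were compared too, a comparison added after the values above had been seen. Their S-phase sum was 741 and 746 CPM in RGCs and 355 and 361 CPM in IPCs. Their mitotic sum was 410 and 322 CPM in RGCs and 145 and 145 CPM in IPCs. Of the 18 S-phase members 16 were lower in IPCs and 0 higher (edgeR over 14191 genes, of which 24.4% were lower), with *Rrm1* and *Fen1* not called. The largest log2 differences were those of *Ung* (-2.38, SE 0.20) and *Mcm3* (-2.29, SE 0.12). Of 20 mitotic members tested, 15 were lower and 0 higher, with *Cenpf* at -2.22, *Bub1b* at -2.07 and *Ccnb1* at -2.00, and *Prc1*, *Nusap1*, *Ube2c*, *Aurka* and *Plk1* were not called. *Aurkb* had too few UMIs in these cells to be tested, and *Top2a* was used by the limit.

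Whether the IPC minus RGC difference itself changed between cells with and without *Top2a* was tested as an interaction across 14548 genes, of which 8.56% were higher and 4.72% lower. It was higher in cells with *Top2a* for 17 of 18 S-phase and 15 of 21 mitotic members, and lower for none. The interaction was 2.38 (SE 0.27) for *Cdc6*, 2.35 (SE 0.20) for *Clspn* and 2.01 (SE 0.12) for *Rrm2* on the log2 scale. *Gins2* was the S-phase member that was not called, at 0.27 (SE 0.19). In the mitotic set it was 2.12 (SE 0.28) for *Bub1b* and 2.07 (SE 0.21) for *Ccna2*, and *Prc1*, *Nusap1*, *Ube2c*, *Aurka*, *Aurkb* and *Plk1* were not called. The filter on low counts took cells with and without *Top2a* together. Members scarce without it, such as *Aurkb*, could thus enter through the cells with it. In IPCs without a *Top2a* UMI levels were near the floor, with *Cdc6* at 2.42 and 1.99, *Bub1b* at 1.79 and 2.31 and *Ccna2* at 2.87 and 3.57 CPM. *Top2a* is itself a member that rises with the mitotic set across cells, so the limit on it also selects on that set. Between the sets the median r was 0.17 and 0.16 in IPCs and -0.02 and -0.03 in RGCs. The limit may thus select on the S-phase set too, and unequally in the classes. These counts are therefore a description and no independent support.

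The third comparison asked how the members stood within the IPC class, between cells with at least 2 UMIs of *Neurod6* (1038 and 1001 cells) and cells with none (196 and 215 cells). The S-phase sum was 598 and 570 CPM in IPCs with *Neurod6* and 1003 and 1171 CPM in those without, while the mitotic sum was 1217 and 1501 CPM with and 1104 and 1103 CPM without. Median depth was similar, at 10151.5 and 8326 UMIs per cell with *Neurod6* and 9867 and 7974 without. Of 18 S-phase members 16 were lower in IPCs with *Neurod6* and 0 higher (edgeR over 12952 genes, of which 11.0% were lower and 10.2% higher), with a median log2 difference of -0.91. All 18 were lower without overlap of the embryos, beside 37.3% of all genes. Of 22 mitotic members 2 were higher, 0 were lower and 20 were not called, with a median of 0.32, and 7 were higher without overlap, beside 25.2% of all genes.

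*Mcm3* stood at 14.5 and 15.2 CPM in IPCs with *Neurod6* and at 59.1 and 48.7 CPM in those without, a log2 difference of -1.78 (SE 0.15, adjusted p = 9.98e-05 in edgeR's test). *Ung* differed by -1.48 (SE 0.34), on 3.84 and 2.69 CPM against 9.498 and 10.1 CPM. *Mcm5*, *Mcm6*, *Cdc6*, *Mcm2* and *Mcm4* were lower by log2 differences of -1.15, -1.14, -1.12, -1.05 and -1.05. *Chaf1b*, *Pola1*, *Clspn*, *Cdc45*, *Gins2*, *Pcna*, *Rrm2*, *Tyms* and *Rrm1* followed, from -0.96 to -0.48. *Mcm7* (-0.33, SE 0.11) and *Fen1* (-0.39, SE 0.19) were not called. DESeq2 called 11 S-phase members lower, with 1673 genes called in either direction.

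*Ube2c* stood at 131 and 155 CPM with *Neurod6* and at 89.7 and 78.4 CPM without, a log2 difference of 0.84 (SE 0.13, adjusted p = 0.00188 in edgeR's test). *Cenpf* stood at 108 and 123 CPM against 74.4 and 67.2 CPM, a difference of 0.79 (SE 0.12, adjusted p = 0.00199). With the embryo as a block 6 mitotic members were higher, with *Top2a*, *Ccnb1*, *Aurka* and *Hmmr* in addition, while among the S-phase members *Cdc6* lost its call (adjusted p = 0.0511) and *Mcm7* gained one (adjusted p = 0.0335). The fit with the block called 3160 of 12952 genes in either direction. After thinning to 5000 UMIs, with the *Neurod6* groups set on the thinned counts, no mitotic member was higher and 1 was lower. The mitotic median was then -0.27, *Cenpf* stood at -0.09, and 2354 genes were called in either direction. The 9 radial glia markers summed to 723 and 617 CPM in IPCs with *Neurod6* and to 2345 and 2274 CPM in those without, and their part in the result was not tested. Counted per cell at 5000 UMIs, a depth that left out a larger part of the cells without *Neurod6*, S-phase positive cells were 15.4% and 14.4% of IPCs with *Neurod6* and 32.1% and 31.2% of those without. Mitosis-positive cells were 11.9% (9.93 to 14.0) and 12.4% (10.4 to 14.6) of IPCs with *Neurod6* and 19.4% (13.7 to 26.3) and 16.4% (11.4 to 22.5) of those without. The share was thus lower with *Neurod6* in both embryos, opposite to the mitotic sum, though the counting intervals overlapped. Mitosis-positive cells held on average 32.9 and 40.7 mitotic UMIs with *Neurod6* and 23.4 and 25.4 without. The higher sum is therefore not a higher share of positive cells, and these values were not tested.

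Beyond the 40 members, 128 other cell-cycle genes in 9 lists were read in the same fits. These lists were chosen with earlier results of these data known, so their counts are no independent support. In IPCs against RGCs 108 were lower, 11 higher and 9 not called, beside 25.7% of all genes lower and 24.5% higher. All 19 genes of spindle motors and cytokinesis and all 8 of chromosome condensation were lower, as were 27 of 28 fork and nucleotide enzymes, 15 of 16 kinetochore and checkpoint genes, 9 of 11 of origin licensing and firing and 11 of 13 of mitotic entry and degradation. The inhibitors and genes of cycle exit were mixed, with 6 of 13 higher and 4 lower. *Gadd45g*, a growth-arrest gene that is also on the IPC marker list, stood at 42.9 and 26.2 CPM in RGCs and at 270 and 263 CPM in IPCs, a log2 difference of 3.04 (SE 0.19). *Cdkn1c*, the CDK inhibitor p57, stood at 27.9 and 46.9 CPM against 190 and 154 CPM, a difference of 2.30 (SE 0.22). *Cdkn3*, a phosphatase that acts on cyclin-dependent kinases, went the other way, at 22.4 and 24.01 CPM in RGCs and 4.42 and 5.07 CPM in IPCs, a difference of -2.20 (SE 0.14). Of the G1 cyclins and kinases 6 of 8 were lower and 2 higher, with *Ccnd1*, cyclin D1, at 92.0 and 85.1 CPM in RGCs and 36.5 and 34.3 CPM in IPCs, a difference of -1.23 (SE 0.08). Of the E2F, Myb and *Foxm1* regulators 9 of 12 were lower and 2 higher, with *E2f8*, a repressor of E2F targets, at -1.60 and *Foxm1*, an activator of mitotic genes, at -1.31.

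Among cells with at least 2 UMIs of *Top2a*, 35 of the 128 were higher in IPCs, 6 lower and 87 not called, beside 13.8% of all genes higher and 14.9% lower. *E2f1*, an activator of S-phase genes, stood at 29.0 and 26.4 CPM in RGCs and 80.4 and 74.7 CPM in IPCs, a log2 difference of 1.52 (SE 0.13), and *E2f5*, a repressor, at 87.2 and 85.0 CPM against 38.9 and 38.9 CPM, a difference of -1.11 (SE 0.13). *Ccne2*, cyclin E2, was higher by 0.82, while *Ccnd3* and *Ccnd1* were lower, at -1.36 and -0.97. Of the fork and nucleotide enzymes 10 of 28 were higher, among them *Rfc3*, a subunit of the clamp loader, by 0.81, *Prim1*, a primase, by 0.71 and *Dut*, which degrades dUTP, by 0.69. Within IPCs, 38 of the 128 were lower with *Neurod6* and 3 higher, beside 11.0% and 10.2% of all genes. They included 19 of 28 fork and nucleotide enzymes and 5 of 11 of origin licensing and firing, all lower. Of the 16 kinetochore and checkpoint genes and 8 condensation genes none was called, and *Aspm*, a spindle-pole protein, was higher by 0.90 (SE 0.25). *Ccnd1* stood at 20.4 and 16.9 CPM with *Neurod6* and at 108 and 102 CPM without, a log2 difference of -2.40 (SE 0.13).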

How the data were processed

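UMI counts per gene and cell were deposited as filtered matrices. The authors made them with Cell Ranger (7.0.0 in the submitters' processing notes, 7.1.0 in the matrix headers) on build mm10, from 10x 3′ libraries (chemistry 3.1). Here, barcodes were kept if 1000 or more genes were detected and mitochondrial UMIs were 10% or less, and those with the highest simulated-doublet scores were removed (0.8% per 1000 cells). UMIs were summed per embryo and class and divided by the sum for CPM. Tests used edgeR 4.0.16 (R 4.3.3; TMM, filterByExpr, quasi-likelihood test) with Benjamini-Hochberg adjustment over all genes tested, calling adjusted p under 0.05, with DESeq2 1.42.0 as an alternative. The fits were tested on simulated data, where with 2 sums per group the share of false calls exceeded the nominal rate in all 3 comparisons, so calls near the threshold are the least certain. Both classes come from the same 2 embryos. Deviations of sums from the same embryo correlated (r = 0.2145 over 15393 genes, 0.1485 over 12521 and 0.1418 over 12952 in the 3 comparisons), and a fit with the embryo as a block was the alternative. Cells were thinned to 5000 UMIs for shares and correlations, with exact binomial intervals. The members and lists were chosen with earlier results of these data known. Named are all 40 members and, of 9 related lists, at most 3 called genes each with the largest log2 difference. Promoter windows are RefSeq's.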

Additional observations from a re-analysis of the deposited data

Results flagged for a closer look

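The IPC minus RGC difference was not alike in cells with and without *Top2a*, a comparison chosen after seeing the data and tested as an interaction with edgeR. It was higher in cells with at least 2 UMIs of *Top2a* for 17 of 18 S-phase members and for 15 of 21 mitotic members, at an adjusted p under 0.05, beside 8.56% of all genes. The embryo block gave counts of 17 and 15 as well. *Top2a* is itself a member that rises with the mitotic set across cells, so the limit on it also selects on that set. The sets correlated with each other in IPCs but not in RGCs, so it may select on the S-phase set unequally in the classes. Some members were near the floor in cells without *Top2a*. How much of the interaction follows from these points was not tested. Cells with 1 UMI of *Top2a* were in neither group. The summed S-phase level of IPCs was 1.42 and 1.40 times that of RGCs in cells with *Top2a* and 0.479 and 0.485 times in cells without. The mitotic level, *Top2a* left out, was 0.933 and 1.06 times that of RGCs in cells with *Top2a* and 0.355 and 0.4502 times in cells without.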

How the results depend on the processing

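In IPCs against RGCs, all 22 mitotic members were called lower under every alternative run, and so were 18 S-phase members except with DESeq2 (17) and with neuronal cells left out of both classes (14). Over all genes, 3806 to 9232 were called in either direction in these runs, beside 7731 in the main fit. Leaving neuronal cells out of RGCs alone was chosen after seeing the data. The median S-phase log2 difference of -0.85 became -1.09 with stricter class limits, -1.04 with limits set after thinning, -1.03 with thinned cells, -1.23 with neuronal cells left out of RGCs and -1.13 as a mean of CPM per cell, and the mitotic one of -1.51 became -1.89, -1.70, -1.79, -1.87 and -1.82, and -2.41 with neuronal cells left out of both. In the same order the log2 ratio of the S-phase sums was -1.14, -1.09, -1.09, -1.29 and -1.11, with -0.73 without neuronal cells in both and -0.88 with doublets kept, and that of the mitotic sums -1.99, -1.85, -1.86, -1.99 and -1.81, with -2.45. The cause was not tested.

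With 1 embryo left out no test is possible, since no residual degrees of freedom remain. The medians then ranged from -0.92 to -0.81 for the S-phase and from -1.61 to -1.45 for the mitotic members, and the log2 ratios of the sums from -0.98 to -0.93 and from -1.72 to -1.58. Shares ranged from 50.9% to 55.6% (S phase) and 48.4% to 49.7% (mitosis) in RGCs, and from 18.3% to 18.4% and 13.2% to 13.4% in IPCs.

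Among cells with *Top2a*, S-phase members called higher and lower were 3 and 2 at 1 UMI, 11 and 1 at 4 UMIs, and 12 and 1 with the replicate block. Mitotic ones were 0 and 4 at 1 UMI, 6 and 1 at 4 UMIs, 6 and 3 with the block, 1 and 2 thinned, 1 and 1 with DESeq2, 0 and 1 without a filter and 1 and 1 with doublets kept. Over all genes, 3888 were called at 1 UMI, 3608 at 4 UMIs, 4320 with the block and 2303 thinned. DESeq2 called 2260, the fit without a filter 2379 and that with doublets kept 3439. At 1 UMI *Mki67* (-0.020) and *Tpx2* (-0.027) turned round. Between IPCs with and without *Neurod6*, mitotic members called higher and lower were 0 and 1 thinned, where *Cenpf* turned to -0.092, 6 and 0 with the block and 10 and 0 without a filter. Over all genes, these fits called 2354, 3160 and 3652 in either direction. The block changed no call of the first comparison.

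Shares of cells moved with the limit. With 3 UMIs they were 63.1% (S phase) and 52.1% (mitosis) of RGCs and 27.0% and 15.2% of IPCs, with 6 UMIs 40.6%, 44.9%, 13.1% and 11.7%, without thinning 73.1%, 56.5%, 33.2% and 17.1%, and at 3000 UMIs 39.8%, 44.4%, 12.6% and 11.7%. With doublets kept the mitotic share of RGCs was 48.0%, and those of IPCs were 19.0% and 13.9%. RGCs were above IPCs in all of these.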

Other observations

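GABAergic cells, with at least 3 UMIs of *Gad1* and *Gad2* together (1228 and 1264 cells), held more of both sets than excitatory neurons did. Their S-phase sum was 495 and 588 CPM and their mitotic sum 842 and 1287 CPM. At 5000 UMIs, 15.5% and 19.9% of them were S-phase positive and 8.05% and 11.1% mitosis-positive, with 396 and 302 shallower cells left out. *Pola1* stood at 160 and 173 CPM in them, beside 159 and 182 CPM in RGCs, 66.0 and 73.7 CPM in IPCs and 33.3 and 30.8 CPM in excitatory neurons, whereas *Mcm3* stood at 10.1 and 12.1 CPM in GABAergic cells and 82.9 and 95.2 CPM in RGCs. These levels were not tested.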
